A study of Homo sapiens with 5 samples.

Results

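The non-catalytic paralog subunits of the SWI/SNF chromatin remodelling complex were followed in TOV21G, a cell line established from an ovarian clear cell carcinoma and mutated in ARID1A. The set held 10 genes (ARID1A, ARID1B, ARID2, PBRM1, SMARCB1, SMARCC1, SMARCC2, SMARCD1, SMARCD2 and SMARCD3), chosen by name, and each matched 1 of the 30476 Ensembl identifiers in the count table. Total RNA was sequenced in 5 libraries: 1 of parental cells, and 4 of cells resistant to GSK126, a small-molecule inhibitor of the histone methyltransferase EZH2. These EZH2 inhibitor-resistant (EIR) libraries came from clone 3 and clone 4, each sequenced untreated and after GSK126 treatment. Resistance was selected by raising GSK126 stepwise from 5 to 20 uM before clones were picked, so differences due to resistance and those due to picking single clones cannot be told apart. The parental library was untreated, and for the treated cultures the labels give neither how much GSK126 was added nor for how long. All 5 libraries share the ARID1A-mutated background, and an ARID1A-intact line was not analysed here.

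SWI/SNF complexes use ATP to move and eject nucleosomes and so open promoters and enhancers. The ATPase, SMARCA4 or SMARCA2, sits on a scaffold of non-catalytic subunits, most of which come in paralog families whose members take the same place in the complex. ARID1A and ARID1B are the alternative large subunits of the canonical BAF form, whereas ARID2 and PBRM1 mark the PBAF form. SMARCC1 and SMARCC2 (BAF155 and BAF170) form the core dimer on which assembly starts, SMARCD1, SMARCD2 and SMARCD3 (BAF60A, BAF60B and BAF60C) are alternative partners of that core, and SMARCB1 (SNF5, BAF47) is a core subunit without a paralog that contacts the nucleosome. ARID1A is among the most often mutated genes in ovarian clear cell carcinoma, and mutated cells keep ARID1B. The balance within each family was therefore described in every library, and then compared between EIR and parental cells, between GSK126-treated and untreated EIR cells, and between the clones.

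Because paralogs resemble each other, the sequences were compared before the counts were read. The coding sequences of SMARCD1 and SMARCD3 were 73.5% identical over aligned bases, those of SMARCD2 and SMARCD3 71.6%, and those of SMARCD1 and SMARCD2 71.5%. The values were 70.2% for SMARCC1 and SMARCC2 and 68.6% for ARID1A and ARID1B. The longest identical stretch of SMARCC1 and SMARCC2 was 23 bases. That of ARID1A and ARID1B was longer, at 25 bases, but with its flanking bases it did not lie within 1 coding exon of ARID1A. It consists mostly of CAG repeats, and with its flanking bases it began at coding base 3964 of ARID1A and 574 of ARID1B. The stretch of SMARCC1 and SMARCC2 is shown, with flanking bases on either side within 1 coding exon of each gene. It is written in the sense of the gene, with the identical stretch in capitals (GRCh37). The SMARCC1 stretch lies at chr3:47752228-47752280 and that of SMARCC2 at chr12:56575549-56575601, both on the minus strand.
SMARCC1: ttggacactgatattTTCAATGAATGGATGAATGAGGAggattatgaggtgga
SMARCC2: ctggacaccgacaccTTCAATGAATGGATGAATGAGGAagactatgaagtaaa
Mismatches begin directly beside the stretch by construction, since it was taken as the longest identical run. No 75-base window, the length of the reads, was shared between any of the 10 members, so reads of these families separate by sequence. Windows shared with other genes lay mostly in overlapping neighbours: 19.2% of the 75-base windows of SMARCD3 lay also in the transcripts of its opposite-strand neighbour CHPF2 or other genes, 16.3% of those of SMARCB1, almost all in DERL3, and 7.12% of those of SMARCC2, mostly in MYL6. The library kit preserved strand, but whether counting used it is not given in the sources used here, so counts of these 3 members could include reads of those neighbours. DERL3 had 0 to 2 counts in every library, whereas MYL6 had 20412 to 38346 and CHPF2 742 to 991.

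The libraries held 25479238 to 30764963 counts, the fewest in GSK126-treated clone 4. Of the listed epithelial and clear cell markers, PAX8 had 3031 to 4491 counts and KRT18 11896 to 18015. NAPSA had 2 counts in the parental library and 4 to 53 in EIR libraries. EPCAM had 398 to 498 in the parental and clone 3 libraries and 0 or 1 in clone 4. The markers of leukocytes and endothelium that were measured, PTPRC, CD14 and VWF, had at most 27 counts. In a bulk sample, fewer cells with a transcript and less of it per cell cannot be told apart. Nothing in the labels says that libraries were separate cultures, the treated library of a clone is no clone independent of its untreated library, and the parental group has 1 library, so p-values measure only the spread among these EIR libraries.

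Read counts were divided by size factors (normalized counts) to compare a gene between libraries, and further by transcript length in kilobases to compare genes. Every member was expressed. SMARCC1 was the most abundant per kilobase in all 5 libraries under each of the 4 definitions of length tried (the median, longest and canonical annotated transcript and the union of exons), at 14607 normalized counts per kilobase in the parental library and 10542 ± 1236 (SD, n = 4) in EIR libraries with the median transcript. The size of its lead depended on length, as its median transcript has 710.5 bases and its canonical transcript 6354. With the canonical transcript SMARCC1 had 1633 in the parental library and 1179 ± 138 (SD, n = 4) in EIR libraries. SMARCD2, the next highest there, had 1400 and 693 ± 46.8 (SD, n = 4). ARID1A had the lowest mean level under each definition, at 148 normalized counts per kilobase in the parental library and 168 ± 69.0 (SD, n = 4) in EIR libraries with the median transcript. With the canonical transcript it had 45.4 and 51.8 ± 21.2 (SD, n = 4). SMARCD3 was next to last under 3 of the definitions, and only in GSK126-treated clone 4, with the median transcript, did ARID1A exceed it. In between, SMARCD1, SMARCC2, PBRM1, SMARCD2, SMARCB1, ARID2 and ARID1B changed places with the definition of length, and no order among them is given.

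**Figure D1:**
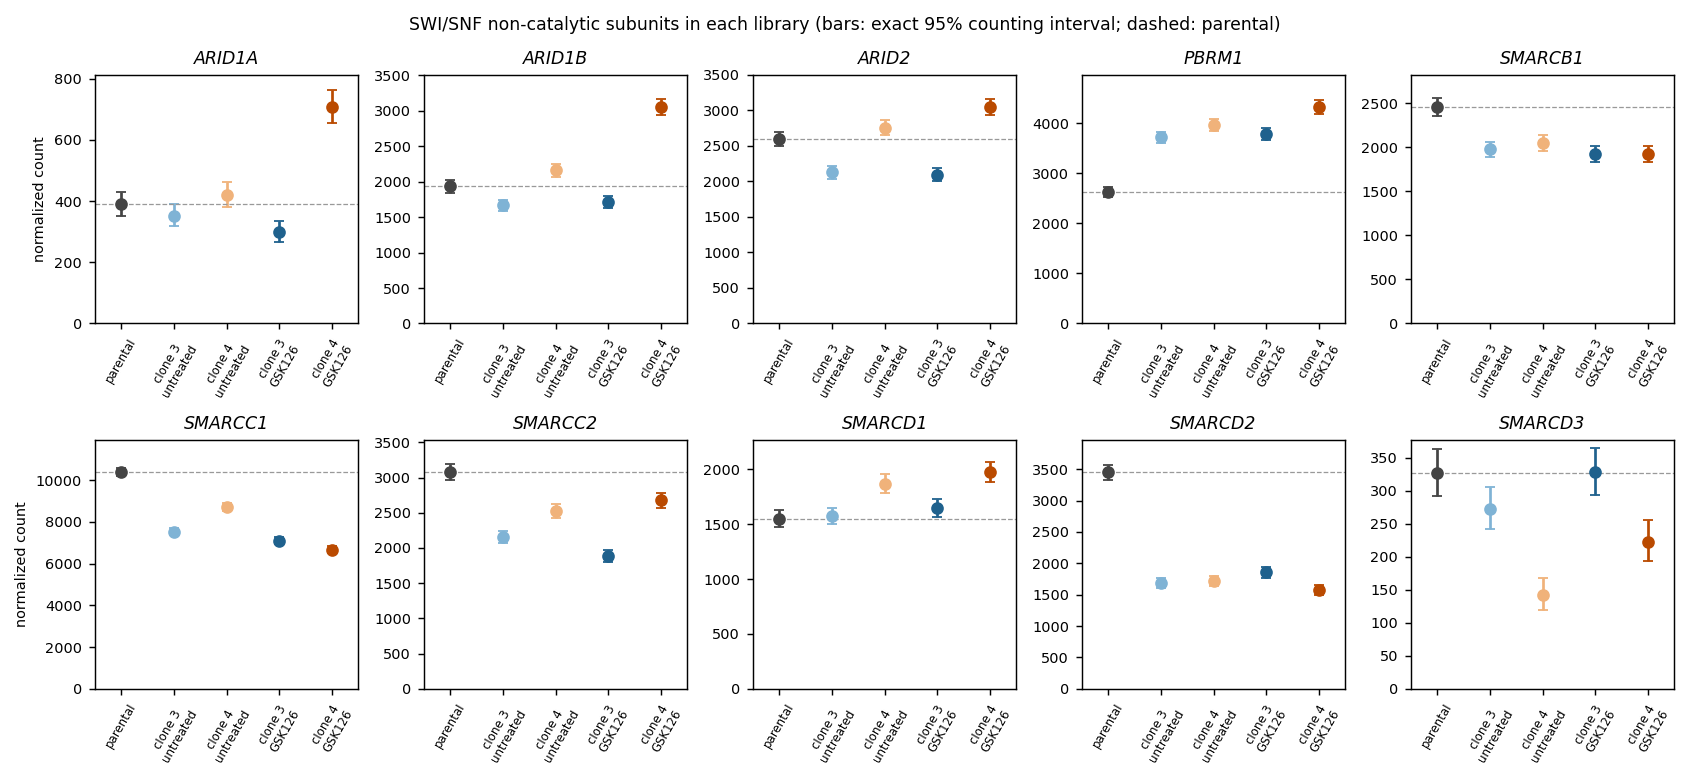
Normalized counts (y axis, from 0, scale set per gene) of the 10 members in the 5 libraries (x axis). Points are single libraries, bars are exact 95% Poisson counting intervals, and the dashed line marks the parental library. SMARCD2 fell from 3451 in the parental library to 1576 to 1855 in EIR libraries, and PBRM1 lay above the parental value in every EIR library. ARID1A, ARID1B, ARID2, PBRM1 and SMARCD1 were each highest in GSK126-treated clone 4.

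Among the large ARID subunits, the mutated ARID1A was expressed at a low level throughout. It had 390 normalized counts in the parental library, 353 and 298 in untreated and treated clone 3, and 421 and 708 in untreated and treated clone 4. Parental cells lay inside the EIR range. The EIR mean was 445 ± 182 (SD, n = 4), and the log2 fold change against parental of 0.19 (95% interval -0.80 to 1.19) did not pass the test (DESeq2 adjusted p = 0.827). These counts do not tell the mutated from an intact transcript, and transcript counts say nothing of protein.

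ARID1B, the remaining partner of that place in BAF complexes, had 1932 normalized counts in the parental library, 1668 and 1709 in untreated and treated clone 3, and 2159 and 3053 in untreated and treated clone 4. Both clone 3 libraries lay below the parental value and both clone 4 libraries above it. Over all EIR libraries the log2 fold change was 0.15 (95% interval -0.60 to 0.91, DESeq2 adjusted p = 0.818). ARID2, the PBAF counterpart, showed the same arrangement, with 2600 in the parental library, 2127 and 2092 in clone 3 and 2757 and 3049 in clone 4 (log2 fold change -0.05, 95% interval -0.62 to 0.52, DESeq2 adjusted p = 0.922).

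The balance of ARID1B to ARID1A was then taken within each library. ARID1B had 4.96 counts for each count of ARID1A in the parental library, 4.73 and 5.72 in untreated and treated clone 3, and 5.13 and 4.31 in untreated and treated clone 4. The parental ratio lay inside the EIR range, and the mean log2 ratio in EIR libraries differed from it by -0.0027 (SD among EIR libraries 0.17, exact permutation p = 1, where 1 against 4 libraries cannot go below 0.2, so that the test says nothing of stability). ARID2 had 6.67 counts per ARID1A count in the parental library, 6.03 and 7.01 in clone 3, and 6.55 and 4.31 in untreated and treated clone 4. The treated clone 4 library alone lay apart here, and without it the log2 difference from parental was -0.03 in place of -0.18. Per kilobase, ARID1B exceeded ARID1A by 1.5 to 4.99 times and ARID2 exceeded ARID1A by 2.84 to 8.99 times over all libraries and definitions of length, so the mutated gene had the lowest level of the family in every library. Which of ARID1B and ARID2 was higher per kilobase depended on the length used.

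ARID1A and ARID1B were further apart between treated and untreated clone 4 than most genes. Their log2 ratio of treated to untreated was 0.75 and 0.50 in clone 4, higher than that of 96.3% and 92.2% of 11377 expressed genes, against -0.24 and 0.03 in clone 3, higher than that of 5.43% and 50.4%. SMARCD3, at 0.27 and 0.65, exceeded 90.9% of these genes in clone 3 and 95% in clone 4. In clone 4 this ratio moved across genes with transcript length (Spearman 0.27, over 11377 genes of the same libraries, given as a description) and with GC content (0.30), while in clone 3 the values were 0.13 and -0.20. ARID1A and ARID1B have long annotated transcripts, of 8595 and 10813 bases, but so do ARID2 (8598) and PBRM1 (7991). The clone 4 log2 ratios of ARID2 and PBRM1 were 0.15 and 0.12, higher than those of 74.1% and 72.0% of these genes. The part of length or GC content in any of these values was not tested.

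PBRM1 (BAF180), the bromodomain subunit specific to PBAF, was higher in every EIR library. It had 2623 normalized counts in the parental library, 3719 and 3781 in untreated and treated clone 3, and 3968 and 4327 in untreated and treated clone 4. The groups did not overlap, and the EIR mean of 3949 ± 273 (SD, n = 4) corresponded to a log2 fold change of 0.59 (95% interval 0.25 to 0.93, DESeq2 adjusted p = 0.00436). With edgeR the adjusted p was 0.0627, and PBRM1 also missed the threshold for untreated libraries against parental in a fit of 3 groups, which equals the fit with treatment as a covariate (0.128), for treated libraries in that fit (0.0734) and with libraries of each clone summed (0.147). The log2 fold change stayed between 0.505 and 0.666 in these and all other settings. PBRM1 was therefore also not called where an absolute log2 fold change of at least 1 was asked for.

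PBRM1 was higher relative to its PBAF partner as well. It had 1.01 counts per ARID2 count in the parental library, 1.75 and 1.81 in clone 3 and 1.44 and 1.42 in clone 4. Every EIR library lay above the parental ratio, and clone 3 above clone 4. The mean log2 ratio differed from parental by 0.66 (SD among EIR libraries 0.18, exact permutation p = 0.2, the smallest this design can give). The gene GNL3, which starts on the opposite strand inside the span of PBRM1 and shares no exonic base with it, had 4813 counts in the parental library and 6748 to 9852 in EIR libraries. Of the 75-base windows of PBRM1, 0.694% lay also in transcripts of another gene, and all of these were shared with UQCC5, not GNL3. The part of GNL3 reads in the PBRM1 counts was not tested.

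Of the core subunits, SMARCB1 had 2456 normalized counts in the parental library, 1975 and 1920 in clone 3 and 2050 and 1921 in clone 4. The EIR libraries lay close together, at 1966 ± 61.1 (SD, n = 4), and all below the parental value. The log2 fold change of -0.32 (95% interval -0.61 to -0.03) did not pass the test (DESeq2 adjusted p = 0.0927), although it did so after genes without 10 counts in at least 2 libraries were removed (0.0473), and the log2 fold change was 0.0011 after correction for GC content.

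SMARCC1 and SMARCC2, the scaffold pair, were both lower in each EIR library than in parental cells. SMARCC1 had 10378 normalized counts in the parental library, 7518 and 7092 in untreated and treated clone 3, and 8697 and 6655 in untreated and treated clone 4. SMARCC2 had 3075 in the parental library, 2154 and 1881 in clone 3, and 2527 and 2675 in clone 4. The parental library lay above all 4 EIR libraries for both. Neither difference passed the test: the log2 fold change was -0.47 (95% interval -0.89 to -0.05, DESeq2 adjusted p = 0.0909) for SMARCC1 and -0.41 (-0.93 to 0.10, adjusted p = 0.255) for SMARCC2. SMARCC1 passed it when untreated clone 4 was left out (log2 fold change -0.55, adjusted p = 0.0468).

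The ratio within the pair had the parental value inside the EIR range. SMARCC1 had 3.38 counts per SMARCC2 count in the parental library, 3.49 and 3.77 in clone 3, and 3.44 and 2.49 in untreated and treated clone 4. Only treated clone 4 fell outside the narrow range of the others. The mean log2 ratio differed from parental by -0.05 (SD among EIR libraries 0.27, exact permutation p = 1, of a smallest possible 0.2). Per kilobase SMARCC1 made up 66.6 to 84.9% of the pair in every library and definition of length, and the sum of the pair per kilobase was lower than in parental cells by a log2 of -0.57 to -0.26 in the 4 EIR libraries with the median transcript.

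Of the 6 ratios examined, that of SMARCD2 to SMARCD1 differed most between parental and EIR cells. PBRM1 to ARID2, also among the 6, is a ratio of PBAF partners and not of paralogs. SMARCD2 had 3451 normalized counts in the parental library, 1679 and 1855 in untreated and treated clone 3, and 1721 and 1576 in untreated and treated clone 4. The EIR libraries lay together at 1708 ± 115 (SD, n = 4), far from the parental value. SMARCD2 fell by 1.01 on the log2 scale (95% interval -1.36 to -0.67, DESeq2 adjusted p = 2.41e-07, edgeR adjusted p = 0.0169). It passed the test in each of the 14 alternative settings, of which 2 are the same fit, with adjusted p from 8.75e-10 to 0.0169, and its log2 fold change was -0.73 after correction for GC content (adjusted p = 0.000196).

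Neither SMARCD1 nor SMARCD3 passed the test, and their difference from SMARCD2 in fold change was not tested. SMARCD1 had 1552 normalized counts in the parental library, 1573 and 1646 in clone 3 and 1870 and 1974 in clone 4. All EIR values were at or above the parental one, by a log2 fold change of 0.19 (95% interval -0.24 to 0.61, DESeq2 adjusted p = 0.578). SMARCD3, the least abundant of the family, had 326 in the parental library, 272 and 328 in clone 3, and 142 and 223 in clone 4. Its parental value lay inside the EIR range and the clones did not overlap, with exact 95% counting intervals of 120 to 168 in untreated clone 4 and 292 to 364 in the parental library. In clone 4 its log2 ratio to parental was -1.19 untreated and -0.55 treated. The log2 fold change of SMARCD3 over the 4 EIR libraries was -0.43 (95% interval -1.39 to 0.53, DESeq2 adjusted p = 0.568).

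The balance of SMARCD2 to SMARCD1 differed accordingly. SMARCD2 had 2.22 counts per SMARCD1 count in the parental library, 1.07 and 1.13 in untreated and treated clone 3, and 0.921 and 0.798 in untreated and treated clone 4. The parental ratio lay above all EIR ratios, with a log2 difference of -1.20 (SD among EIR libraries 0.22, exact permutation p = 0.2, the smallest this design can give). SMARCD3 had 0.210 counts per SMARCD1 count in the parental library, 0.173 and 0.199 in clone 3, and 0.0762 and 0.113 in clone 4, a log2 difference of -0.68 (SD 0.63, exact permutation p = 0.4) with clone 3 near the parental value and clone 4 below it.

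As shares of the SMARCD counts per kilobase, SMARCD2 went from 36.8% in the parental library to 18.4 to 22.9% in EIR libraries with the median transcript, and from 68.5% to between 47.1 and 52.8% with the canonical transcript. The share of SMARCD1 went from 53.4% to between 65.7 and 74.3% and from 23.1% to between 35.2 and 44.3%. Which of the pair was the larger depended on the definition of length, while the share of SMARCD2 was lower in EIR libraries under each of the 4. With the canonical transcript SMARCD2 exceeded SMARCD1 2.96-fold in the parental library and 1.06- to 1.5-fold in EIR libraries, and with the median transcript SMARCD1 led in every library. With the longest transcript this ratio was 2.01 in the parental library and 0.722 to 1.02 in EIR libraries, and with the union of exons 1.85 and 0.664 to 0.937.

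**Figure D2:**
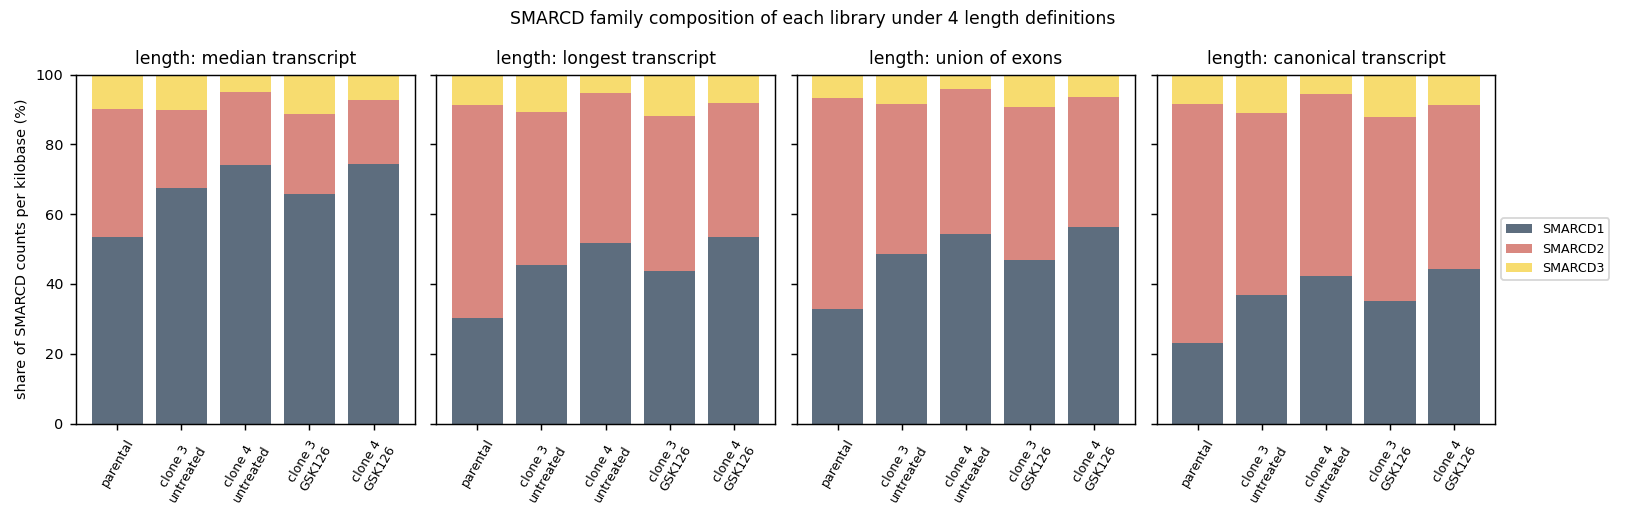
Share of each SMARCD paralog in the family's normalized counts per kilobase (y axis, percent) in the 5 libraries (x axis), with 1 panel for each of 4 definitions of transcript length. The share of SMARCD2 is smaller in each of the 4 EIR libraries than in parental cells in every panel, whereas the height of the SMARCD1 and SMARCD2 bars depends on the panel.

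**Figure D3:**
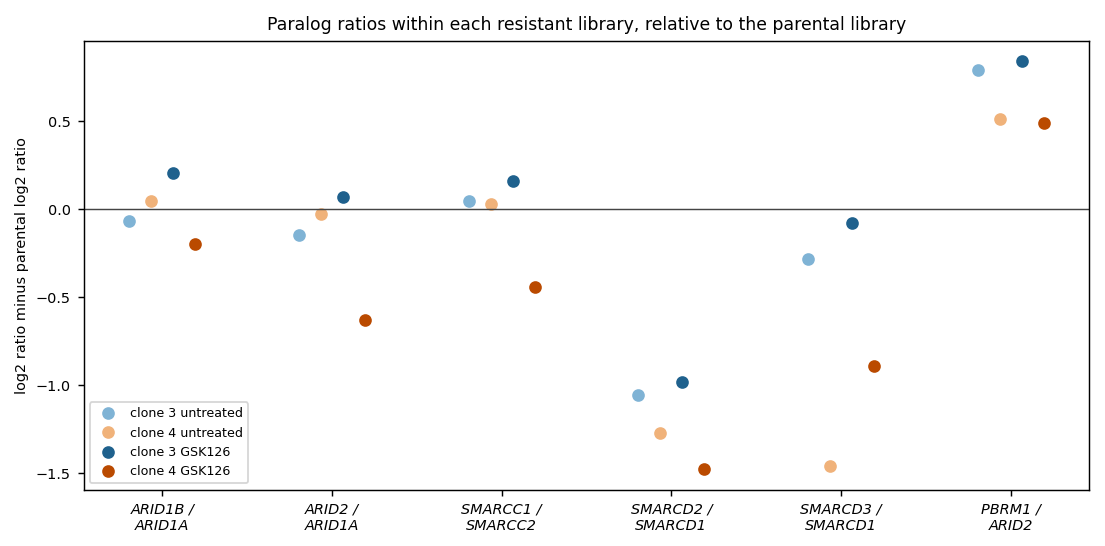
Log2 ratio of the counts of a pair of genes within each EIR library minus the same log2 ratio in the parental library (y axis). The 6 pairs (x axis) are paralogs, except PBRM1 and ARID2, which are PBAF partners. Points are coloured by clone and treatment, and the line at 0 marks parental. The SMARCD2 to SMARCD1 ratio lies below parental and the PBRM1 to ARID2 ratio above it in all 4 EIR libraries. Treated clone 4 is lowest for every pair except SMARCD3 to SMARCD1, where untreated clone 4 is lowest.

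For the 6 ratios, differences between treated and untreated libraries were -0.19 to 0.39 on the log2 scale, with exact permutation p from 0.667 to 1, where 2 against 2 libraries cannot go below 0.333 and the test ignores that libraries pair by clone. Within clones, SMARCD3 to SMARCD1 was higher in the treated library of both, by 0.20 in clone 3 and 0.57 in clone 4, and the other 5 ratios were higher in the treated library of clone 3 and lower in that of clone 4. Between clones, all 6 ratios were lower in clone 4 than in clone 3, with log2 differences from -0.15 for ARID1B to ARID1A to -0.999 for SMARCD3 to SMARCD1. Each of the SMARCC, SMARCD and PBAF ratios separated the clones without overlap (exact permutation p = 0.333, the smallest possible).

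Over all genes, 12.4% of 16288 tested with DESeq2 rose and 13.2% fell in EIR against parental cells, and among the 10 members PBRM1 rose and SMARCD2 fell. With edgeR, 4.39% of 18212 genes rose and 6.73% fell, and SMARCD2 fell alone among the members. A count of 1 in each direction is near these backgrounds. The median log2 fold change of the members was -0.19, against 0.0025 over all genes tested. The parental value lay above all 4 EIR libraries for 4 members (SMARCB1, SMARCC1, SMARCC2, SMARCD2) and below them for 2 (PBRM1, SMARCD1), where 40.6% and 31.9% of 11564 expressed genes (mean normalized count of 100 or more) did the same. Across expressed genes the ratio of each EIR library to parental fell with GC content (Spearman -0.49 to -0.39, a description across genes of shared libraries). SMARCD2 (54.9% GC) and PBRM1 (44.02% GC) differed from parental in the directions in which this trend runs, and with the correction for GC content both still passed, at log2 fold changes of -0.73 and 0.50 (DESeq2 adjusted p = 0.034 for PBRM1).

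**Figure D4:**
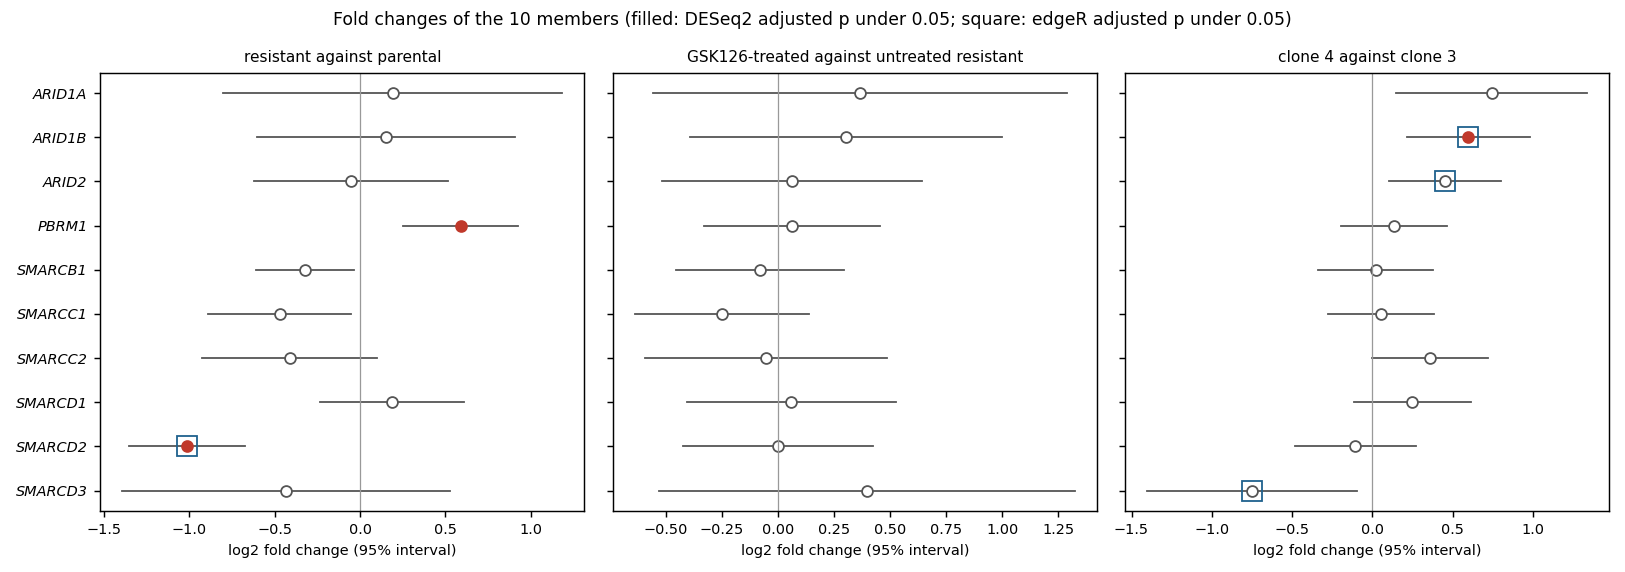
DESeq2 log2 fold change (x axis) with its 95% interval for the 10 members (y axis) in 3 comparisons, 1 per panel. Filled points passed an adjusted p of 0.05 in DESeq2 (PBRM1 and SMARCD2 against parental, ARID1B between clones), squares mark those that passed in edgeR (SMARCD2 against parental; ARID1B, ARID2 and SMARCD3 between clones), and none passed for GSK126.

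GSK126 treatment of the resistant clones changed no member past the threshold. DESeq2 called 0.00335% of 29847 genes (1 gene), 0 of the 10 members, and 0 members had an unadjusted p under 0.05. With edgeR 0 members were called and 0 had an unadjusted p under 0.05, and with the clone as a block in edgeR, 1 did (SMARCD3, log2 fold change 0.44, edgeR adjusted p = 0.993). Log2 fold changes ran from -0.25 for SMARCC1 (95% interval -0.64 to 0.14) to 0.40 for SMARCD3 (-0.53 to 1.32), and the median over the members was 0.06, against 0.03 over all genes tested. The intervals are from the DESeq2 fit without the clone as a block, so they include the spread between clones. The interval of ARID1A reached from -0.56 to 1.29, so changes of that size remain possible. SMARCD3 was higher in the treated library of both clones, by 0.27 in clone 3 and 0.65 in clone 4, and SMARCC1 lower in both, by -0.08 and -0.39.

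The clones differed from each other in ARID1B. It was higher in clone 4 than in clone 3 by a log2 fold change of 0.60 (95% interval 0.21 to 0.98, DESeq2 adjusted p = 0.0273, edgeR adjusted p = 0.039). With DESeq2 3.31% of 17695 genes were higher and 6.52% lower in clone 4, and ARID1B was the 1 member called. With edgeR 5.65% of 16616 genes were higher and 9.27% lower, and ARID2 (log2 fold change 0.48, adjusted p = 0.0466) and SMARCD3 (-0.72, adjusted p = 0.045) were called beside it. In DESeq2 these had adjusted p of 0.096 and 0.168, and ARID1A, with the larger log2 fold change of 0.74, had 0.113. Without treatment as a covariate, DESeq2 found 4.85% of 18852 genes higher and 8.48% lower, and called ARID1A (0.78, adjusted p = 0.0257) and ARID2 (0.45, adjusted p = 0.0166) beside ARID1B. The ARID1B call rested on the libraries used: in that fit it was lost without untreated clone 3 (DESeq2 adjusted p = 0.337), treated clone 3 (0.319) or treated clone 4 (0.162), with log2 fold changes of 0.59, 0.61 and 0.35. Clone 4 lay above clone 3 without overlap for ARID1A, ARID1B, ARID2, PBRM1, SMARCC2 and SMARCD1 and below it for SMARCD3, where 27.8% and 35.3% of expressed genes did so. The median log2 fold change of the members between clones was 0.19, against -0.0034 over all genes tested. All 3 ARID subunits were higher in both clone 4 libraries, and the parental library lay between the clones for each. How many expressed genes had the parental library between the clones was not counted.

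The other 18 measured subunits gave the setting. The ATPases differed from parental in opposite directions: SMARCA4 fell from 13474 normalized counts to 8632 ± 247 (SD, n = 4; log2 fold change -0.64, DESeq2 adjusted p = 1.96e-05) and SMARCA2 rose from 1238 to 3155 ± 445 (SD, n = 4; 1.35, adjusted p = 2.26e-06). SMARCA2 passed the test in every setting run, whereas SMARCA4 missed it with the correction for GC content (log2 fold change -0.28, DESeq2 adjusted p = 0.0743) and with libraries of each clone summed (0.0890). SMARCA4, at -0.64, was also not called where an absolute log2 fold change of at least 1 was asked for. In all, DESeq2 called 5 of the 18, with SMARCA2 higher and SMARCA4, ACTB (log2 fold change -0.56), BCL7A (-0.86) and BCL7C (-0.72) lower, and edgeR called SMARCA2, SMARCA4 and BCL7A. These counts of 1 higher and 4 lower stand beside 12.4% and 13.2% of all genes. They depended on scaling: with the correction for GC content (10.2% of 16879 genes higher, 9.35% lower) SMARCA2, BCL7B, BRD9 and SS18 were higher and BCL7A and PHF10, a PBAF subunit, lower, and with total counts (13.6% and 10.3%) SMARCA2, BCL7B and SS18 were higher and SMARCA4, BCL7A and BCL7C lower. BCL7A and BCL7C are small accessory subunits and ACTB is the actin found in the complex as well as in the cytoskeleton. The median log2 fold change of these 18 was -0.11, against 0.0025 over all genes tested. No other subunit was called for GSK126 (0 of 18 in DESeq2, 0 with an unadjusted p under 0.05; 0 in edgeR, 1 with an unadjusted p under 0.05), and between clones edgeR called only PHF10 and DESeq2 none, with 1 at an unadjusted p under 0.05.

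Several members are neighbours in the genome (GRCh37). SMARCC1 (chromosome 3, 47626759 to 47823596) and PBRM1 (52579368 to 52719933) start 4.95 Mb apart, and ARID2 (chromosome 12, 46123489 to 46301823), SMARCD1 (50478983 to 50494490) and SMARCC2 (56556143 to 56583351) follow each other at 4.36 and 6.08 Mb. SMARCD2 lies on chromosome 17 (61909441 to 61920425), ARID1A on chromosome 1 (27019727 to 27108595), ARID1B on chromosome 6 (157097154 to 157531913), SMARCB1 on chromosome 22 (24129118 to 24180196) and SMARCD3 on chromosome 7 (150935850 to 150974982). Neighbouring expressed genes were taken within 5 Mb to see whether a member moved with its region. PBRM1, with a mean log2 ratio to parental of 0.59 over the EIR libraries, exceeded 93.4% of its 106 neighbours, whose median was -0.29. SMARCC1, at -0.48 among 121 neighbours with a median of -0.22, lay on the other side. SMARCD2, at -1.02, was lower than all but 11.9% of its 59 neighbours, whose median was -0.07. On chromosome 12, SMARCD1 (0.18) and SMARCC2 (-0.43) differed in sign while the medians around them were -0.17 and -0.26. The medians around all 10 members ran from -0.30 to -0.02. Copy number was not measured here.

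**Figure D5:**
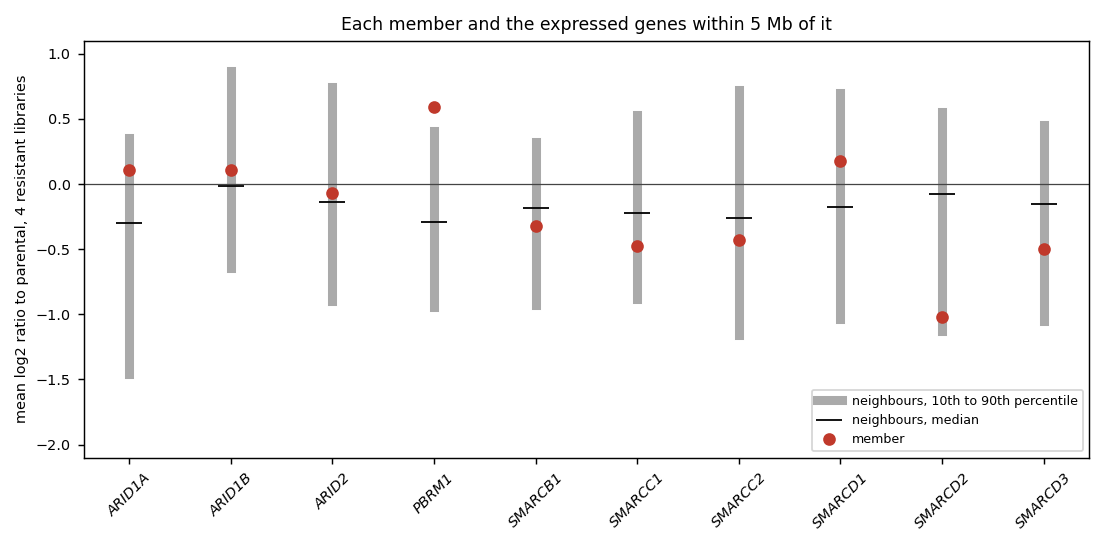
Mean log2 ratio to parental over the 4 EIR libraries (y axis) for each member (point) and for the expressed genes within 5 Mb of it (line, median; bar, 10th to 90th percentile). PBRM1 lies above the bar of its neighbours, SMARCD2 lies near the bottom of its bar, and the neighbour medians stay between -0.30 and -0.02.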

How the data were processed

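RNA-seq counts of TOV21G libraries (paired-end, 75-base reads, stranded total RNA kit) were analysed. The authors aligned reads to hg19 with Bowtie2 and estimated counts with RSEM on Ensembl genes, and the deposited estimated counts were whole numbers in 5 libraries. All 30476 rows were used, and 95.8% of identifiers matched GENCODE v44 lifted to GRCh37, the same build as hg19. DESeq2 (version 1.42.0, Wald test, two-sided, size factors by the median of ratios, p adjusted over all genes by Benjamini-Hochberg, threshold 0.05), which the study used, was the main test, and the edgeR (version 4.0.16) quasi-likelihood test with TMM factors and its expression filter was set beside it, in R 4.3.3. EIR libraries were compared with parental cells without covariates, treated with untreated EIR libraries without covariates, and clone 4 with clone 3 with treatment as covariate. The clone pairs a treated with an untreated library, and same-clone deviations correlated at 0.86 over 11564 genes, so a fit with the clone as replicate block was run beside the treatment comparison. Ratios within a library used a pseudocount of 0.5 counts and exact two-sided permutation tests over libraries (Python 3.11.15). Length was the median over annotated transcripts. Counting intervals are exact Poisson intervals for counting error only; reads carried no molecular identifiers. Named were all 10 members in every comparison, the ATPases SMARCA4 and SMARCA2, and any of 19 listed other subunits past the DESeq2 threshold (ACTL6B had no matched identifier); GNL3, the neighbours that share sequence with members, and PHF10, BCL7B, BRD9 and SS18 were named after their values were seen. The markers CD3E and PECAM1 had no matched identifier, and 1 listed marker is not reported here. Members and lists were chosen with earlier results of these data known.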

Additional observations from a re-analysis of the deposited data

Results flagged for a closer look

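For 3 members the clones lay on opposite sides of the parental library in every library: the mean log2 ratio to parental was higher in clone 4 than in clone 3 by 0.75 for ARID1A, by 0.60 for ARID1B and by 0.46 for ARID2. The difference between the clones passed the DESeq2 test for ARID1B alone, and for all 3 without treatment as a covariate, and the edgeR test for ARID1B and ARID2. The share of expressed genes with the parental library between the clones was not counted, so the 3 members are a description only.

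For 4 members treated and untreated libraries differed in opposite directions in the clones. The log2 ratio of treated to untreated was higher in clone 4 than in clone 3 by 0.99 for ARID1A, by 0.17 for ARID2 and by 0.28 for SMARCC2, and for SMARCD2 the difference was -0.27. With 1 library of each clone and treatment, these differences were not tested. How many expressed genes differed in opposite directions in the clones was not counted, so the 4 members are a description only.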

How the results depend on the processing

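Against parental cells 2 members were called, and 2 to 3 when each EIR library was left out. The count was 1 (SMARCD2) with edgeR, untreated libraries in a 3-group fit (the same fit as treatment as covariate), treated libraries in that fit, clones summed, or a log2 fold change of at least 1; over all genes these settings called 2024, 1998, 2017, 1914 and 2115 in place of 4157. Between clones 1 member was called, 3 with edgeR (ARID1B, ARID2, SMARCD3), 3 without the treatment covariate (ARID1A, ARID1B, ARID2; 2514 of 18852 genes in place of 1739) and 0 with a log2 fold change of at least 1 (1096 genes). For GSK126 no member was called in any of 12 settings. The replicate block left 0 members called in DESeq2 and edgeR, and over all genes 4 in place of 1 in DESeq2 and 1 in place of 0 in edgeR. Leaving out 1 library between clones left no residual degrees of freedom with the treatment covariate. Without that covariate (added after seeing the data; the lone library of a clone is assumed to vary like the other pair), 0 to 3 members were called: 0 without either clone 3 library, SMARCD3 alone without treated clone 4, and ARID1A, ARID1B and ARID2 without untreated clone 4.

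Values that changed sign had not passed the test. Against parental these were ARID1A and ARID1B with untreated libraries in the 3-group fit or treatment as covariate (-0.011 and -0.014), ARID2 with total counts (0.024) and SMARCB1 with the GC offset (0.0011), and, leaving out 1 library, ARID1A (-0.12 to 0.33), ARID1B (-0.0582 to 0.25) and ARID2 (-0.15 to 0.0181). For GSK126 these were SMARCC2 with total counts (0.038), SMARCD2 with TMM factors (-0.0029) and the replicate block (-0.0034), and, leaving out 1 library, ARID1A (-0.38 to 0.85), ARID1B (-0.17 to 0.65), ARID2 (-0.23 to 0.30), PBRM1 (-0.0316 to 0.15), SMARCC2 (-0.32 to 0.17), SMARCD1 (-0.0715 to 0.18), SMARCD2 (-0.14 to 0.12) and SMARCD3 (-0.0020 to 0.95). Between clones these were, leaving out 1 library, SMARCB1 (-0.0332 to 0.0647; -0.0214 without treated clone 3) and SMARCC1 (-0.15 to 0.24).

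Length moved the mean log2 ratio per kilobase in EIR libraries, by construction. ARID1B to ARID1A was 2.11 and 0.78 with the union of exons. With the longest transcript, the union and the canonical transcript (added after seeing the data), ARID2 to ARID1A was 2.55, 2.92 and 2.55 (1.955 with the median), SMARCC1 to SMARCC2 1.38, 1.97 and 1.38 (2.28), SMARCD2 to SMARCD1 -0.19, -0.31 and 0.37 (-1.73) and PBRM1 to ARID2 0.78, 1.03 and 0.78 (0.54). SMARCD3 to SMARCD1 was -2.48 with the longest and -2.14 with the canonical transcript (-3.13). Differences from parental moved by less than 1 SD under every alternative. The single parental library limits each comparison with parental cells.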
